A study of Drosophila melanogaster with 12 samples.

Results

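The translation initiation factors of the Drosophila larval fat body were taken as every row of the deposited count table whose symbol starts with eIF, which gave 28 of 15222 rows. The rule used names only and no measured value, but it was chosen with earlier results of these data known. The libraries were made from total RNA of fat bodies of female larvae, taken at the third instar in the wandering stage, with RiboZero removal of rRNA before Illumina HiSeq sequencing. The study asked how lowered insulin signalling in the fat body alters gene expression on an ordinary and on a sugar-rich food. All 12 libraries came from larvae reared at 25 °C that inherited from the mother UAS-Dcr2 and r4-GAL4, a driver active in the fat body. In the control groups the father came from the w1118 stock 60000. In the InRi groups the father came from stock 992, which carries UAS-InRi, a hairpin construct for RNA interference against the insulin receptor gene InR. Each genotype was reared on food with 0.15 M sucrose or with 0.7 M sucrose, which gave 4 groups of 3 libraries. Fat bodies were freed by shearing and collected by centrifugation, so the samples are bulk tissue. The labels do not say whether replicates came from separate cultures or how many larvae were pooled, so each p-value measures the spread between these libraries, which may be technical.

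Initiation begins when eIF2, bound to GTP, delivers the initiator tRNA to the small ribosomal subunit together with eIF1A, eIF3 and eIF5. The cap-binding complex eIF4F, made of eIF4E, the scaffold eIF4G and the helicase eIF4A, recruits the messenger RNA, and eIF3 bridges it to the ribosome. eIF2B recharges eIF2 with GTP, and eIF5B joins the large subunit. Insulin and Tor signalling act on this machinery mainly through phosphorylation of proteins, for instance of the eIF4E-binding protein Thor and of S6 kinase, neither of which a transcript count measures.

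Levels are counts per 1000000 counts (CPM) on library sizes scaled by the trimmed mean of M-values (TMM). Tests are edgeR's quasi-likelihood tests fitted to all 12 libraries, with p-values adjusted by Benjamini-Hochberg over the 8662 genes that passed a filter on low counts. A gene was called where the adjusted p was under 0.05. Of the 28 eIF rows, 23 passed this filter and 5 did not. Fold changes are on the log2 scale and are InRi minus control or 0.7 M minus 0.15 M. Libraries held 872755 to 7114144 counts, the fewest in control 0.7 M replicate 3. The 7 fat body markers were all present and summed to 160809 to 355923 CPM per library. Between InRi and control, 1 of 7 was called lower and 0 higher on 0.15 M, on 0.7 M and averaged over the diets. Of all genes, 0.773%, 1.79% and 5.13% were called lower in the same order. The median log2 fold changes of the 7 were -0.26, -0.52 and -0.39. Counts at the targeted gene did not go the way the label says, since those of InR were higher in the libraries labelled InRi on both diets, by 1.60 ± 0.30 (SE) on 0.15 M sucrose with adjusted p = 0.0185 and by 1.42 ± 0.30 (SE) on 0.7 M sucrose with adjusted p = 0.0157. InR missed the threshold in 3 of 18 alternative fits on 0.15 M and in 6 of 18 on 0.7 M, with adjusted p up to 0.295 and 0.0947, while averaged over the diets it passed in all 17. Whether reads of the UAS-InRi hairpin were counted at InR was not tested, so these values do not give the level of the InR message, and the groups are named by their labels below. Library control 0.15 M replicate 2 stood apart from all others. It held 7628 genes with a count against 9214 to 11312 elsewhere, and its mitochondrial share was 0.0451% against 0.776% to 6.67%. Differences that its values move most are given with and without it.

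Per exonic kilobase, eIF-5A was the most abundant initiation factor transcript, with a median of 1317 CPM per kb over the 11 libraries without control 0.15 M replicate 2. eIF-5A, now named eEF5, is known mainly as an elongation factor that helps ribosomes through difficult stretches of peptide. The helicase eIF-4a followed at 716 CPM per kb. The 5 eIF3 subunits came next, with eIF3-S9 at 188, eIF3-S8 at 172, eIF-3p40 at 141, eIF3-S10 at 134 and eIF-3p66 at 134 CPM per kb. These 5 subunits of 1 complex lay within 1.41 times of each other, and the ranges of neighbours in this order overlapped over the libraries. The pair of eIF2 subunits lay within 1.34 times of each other, with eIF-2beta at 77.4 and eIF-2alpha at 57.9 CPM per kb. The 5 eIF2B subunits lay between 8.04 and 15.8 CPM per kb, within 1.97 times of each other. The 3 genes of eIF4F were spread over 18.8 times, since eIF-4E stood at 54.0 and eIF4G at 38.0 CPM per kb beside eIF-4a. The lowest of the 23 was eIF4G2, a relative of eIF4G known from spermatogenesis, at 6.30 CPM per kb. Counts in all 28 rows made up 0.469% to 0.815% of a library, and eIF-4a held 27.2% to 31.9% of them.

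**Figure D1:**
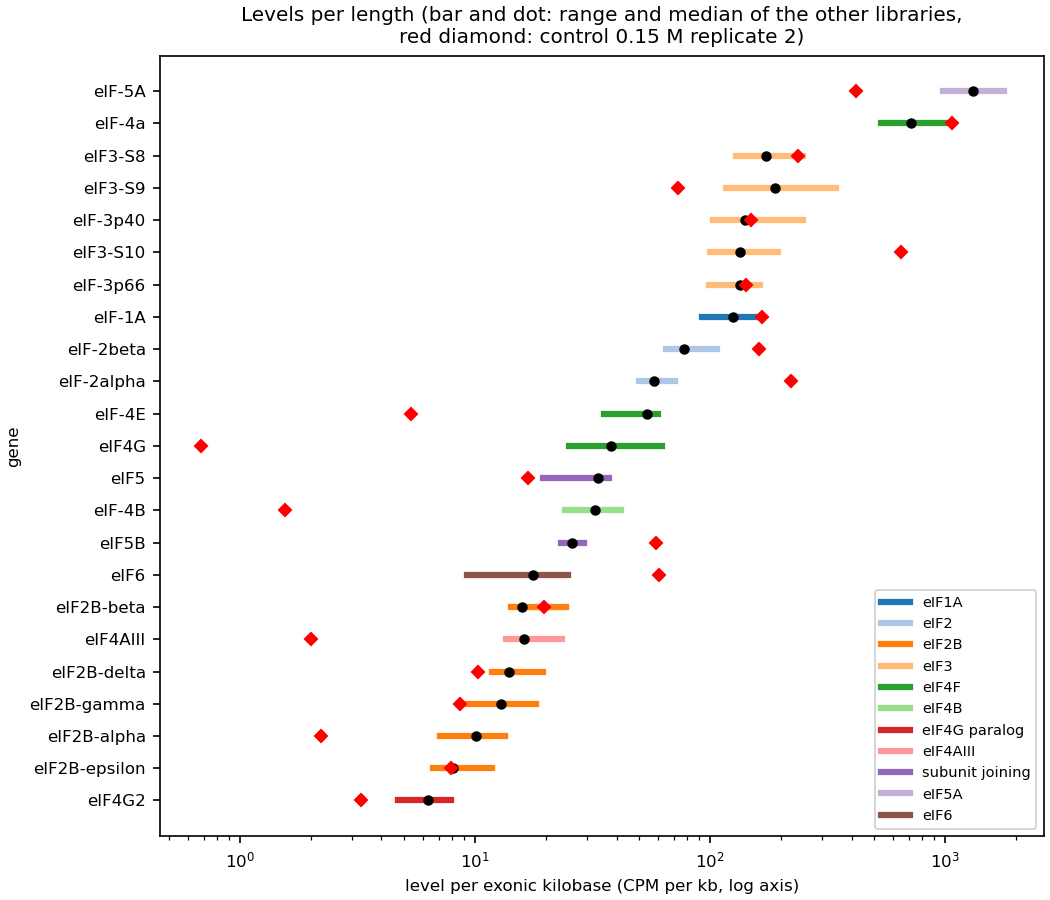
Level of 23 initiation factor genes in CPM per exonic kilobase on a log axis, with a bar for the range and a dot for the median over 11 libraries and a red diamond for control 0.15 M replicate 2. eIF-5A and eIF-4a lie highest, at 1317 and 716 CPM per kb, and the diamonds of eIF4G, eIF-4B and eIF-4E lie far below their bars.

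With all 12 libraries, the eIF3 complex held the only initiation factor genes that edgeR called. Averaged over both diets, eIF3-S9 and eIF-3p40 were higher in the libraries labelled InRi, and no other eIF row passed in either direction. This is 2 of 23 higher and 0 lower, where 6.23% of all genes tested were called higher and 5.13% lower. The share of the eIF rows is 8.7%, near that of all genes.

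eIF3-S9 encodes the b subunit, a core scaffold of the complex. Replicates 1 to 3 of control 0.15 M held 385, 196 and 312 CPM, and those of InRi 0.15 M held 682, 479.7 and 671 CPM. In control 0.7 M the values were 421, 439 and 504 CPM, and in InRi 0.7 M they were 887, 921 and 831 CPM. On each diet all InRi libraries lay above all control libraries, while over both diets the lowest InRi library lay below the highest control library. The averaged difference was 1.99-fold (log2 fold change 0.99 ± 0.20 (SE), adjusted p = 0.00742). Neither diet alone reached the threshold, with 1.03 ± 0.29 (SE) on 0.15 M sucrose (adjusted p = 0.0888) and 0.95 ± 0.28 (SE) on 0.7 M sucrose (adjusted p = 0.0766). Without control 0.15 M replicate 2, the averaged difference was 0.88 ± 0.15 with adjusted p = 0.00115, that on 0.15 M was 0.79 ± 0.22 with adjusted p = 0.066, and the gene also passed on 0.7 M with adjusted p = 0.00433.

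eIF-3p40 encodes the h subunit, which lies in the outer part of the complex. Its levels were 173, 224 and 154 CPM in control 0.15 M and 306, 204 and 287 CPM in InRi 0.15 M. They were 197, 210.0 and 211 CPM in control 0.7 M and 346, 371 and 331 CPM in InRi 0.7 M. The groups overlapped on 0.15 M, where control replicate 2 was above InRi replicate 2, and did not overlap on 0.7 M. The averaged difference was 1.57-fold (log2 fold change 0.65 ± 0.17 (SE), adjusted p = 0.0275). It missed the threshold in 8 of the 12 fits that leave out 1 library, the highest adjusted p being 0.0861 where replicate 1 of InRi 0.15 M was left out. Those 8 were control 0.15 M replicate 3, InRi 0.15 M replicates 1 and 3, all 3 replicates of control 0.7 M and InRi 0.7 M replicates 1 and 2. It passed more clearly without control 0.15 M replicate 2, at 0.73 ± 0.14 (SE) and adjusted p = 0.00281.

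The other 3 eIF3 rows did not pass in the 12 libraries. eIF3-S8, the c subunit, stood at 464, 782 and 428 CPM in control 0.15 M, 664, 514 and 745 in InRi 0.15 M, 549, 572 and 573 in control 0.7 M and 778, 825 and 746 in InRi 0.7 M. eIF3-S10, the a subunit, was at 446, 2522 and 389 CPM in control 0.15 M and at 540.0, 418 and 595 CPM in InRi 0.15 M. The second control value is 6.04 times the mean of the other 2 and turned the fitted difference on that diet from 0.29 without it to -1.11 with it. On 0.7 M sucrose eIF3-S10 was at 440.1, 523 and 502 CPM for control and 680.0, 756 and 711 CPM for InRi. eIF-3p66, the d subunit, which can itself bind the cap, ranged from 198 to 285 CPM on 0.15 M and from 233 to 328 CPM on 0.7 M. On 0.7 M sucrose each of the 5 eIF3 rows was higher in every InRi library than in every control library, with log2 fold changes of 0.28 to 0.95 and adjusted p = 0.0766 to 0.68. Of all genes tested, 18.5% lay wholly higher in this comparison. The 5 rows summed to 1840 to 2059 CPM in control 0.7 M and to 2924 to 3201 CPM in InRi 0.7 M. Without control 0.15 M replicate 2, the averaged difference passed for eIF3-S8 (adjusted p = 0.0216) and eIF3-S10 (adjusted p = 0.0431) as well, and not for eIF-3p66 (adjusted p = 0.137). Of all genes, 11.6% were called higher in that fit.

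**Figure D2:**
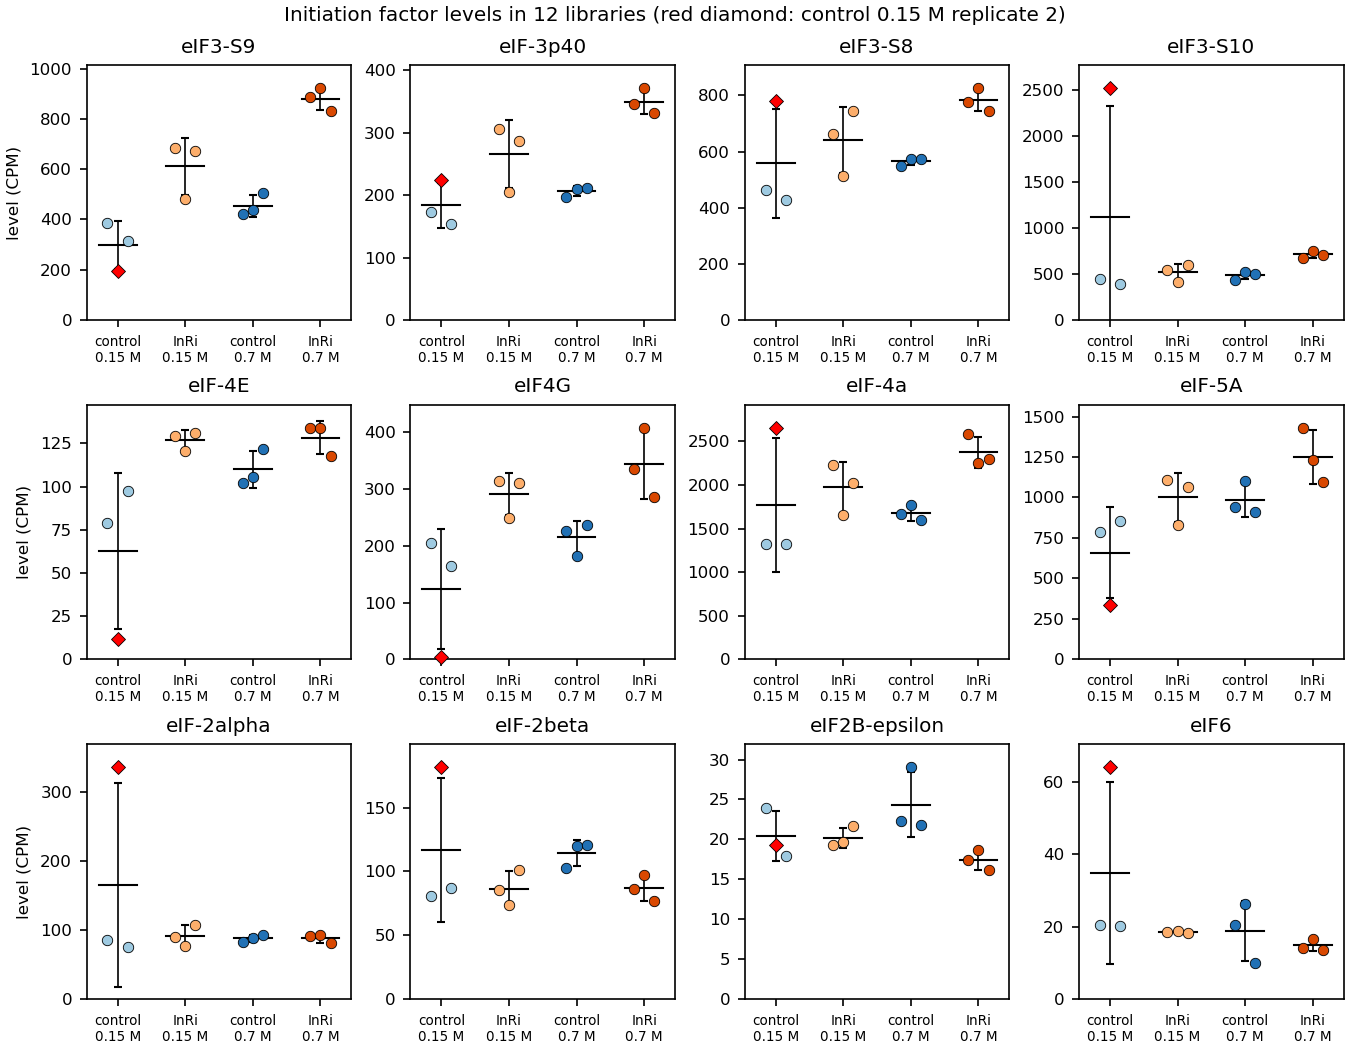
Level in CPM (linear axis from 0) of 12 initiation factor genes in each of 12 libraries, with a line for the group mean, bars for ±1 SD (n = 3; those reaching below 0 end at the axis) and a red diamond for control 0.15 M replicate 2. eIF3-S9 in InRi 0.7 M lies at 831 to 921 CPM, above the 421 to 504 CPM of control 0.7 M, and the diamond lies far from its group for eIF3-S10, eIF4G and eIF-2alpha.

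Other eIF3 subunits carry symbols that do not start with eIF and were taken from a list of initiation factor genes. The list was chosen with earlier results of these data known. With them, 14 eIF3 rows were in the table and 12 passed the filter. Averaged over the diets, 5 of the 12 were higher in InRi and 0 lower, beside 6.23% and 5.13% of all genes. The additional ones were CG5642 (eIF3l; log2 fold change 1.29 ± 0.22 (SE), adjusted p = 0.00278), Tango7 (eIF3m; log2 fold change 0.77 ± 0.16 (SE), adjusted p = 0.00806) and CG10306 (eIF3k; log2 fold change 0.75 ± 0.16 (SE), adjusted p = 0.00889). CG5642 was at 139.9, 52.8 and 103 CPM in control 0.15 M and 221, 188 and 259.8 CPM in InRi 0.15 M. It was at 133, 129.6 and 154 CPM in control 0.7 M and 356, 410.4 and 345 CPM in InRi 0.7 M, so that all 6 InRi libraries lay above all 6 control libraries. It alone of the 12 eIF3 genes did so, beside 3.83% of all genes tested. It was the single eIF3 gene of the 12 to pass on 0.7 M alone, beside 5.41% of all genes (log2 fold change 1.42 ± 0.31 (SE), adjusted p = 0.0207), but missed the threshold there in 5 of the 12 fits without 1 library, with adjusted p up to 0.105. The averaged calls of these 3 genes held in all 17 alternative fits, with adjusted p of at most 0.032. Tango7 stood at 191, 207 and 222 CPM in control 0.7 M and 341, 323 and 289.7 CPM in InRi 0.7 M, and CG10306 at 132, 159 and 152 and 250.4, 237 and 229 CPM. Int6, the e subunit, just missed the threshold with all libraries (adjusted p = 0.0501) and passed without control 0.15 M replicate 2 (adjusted p = 0.0208), where 8 of the 12 subunits were called higher and 0 lower, beside 11.6% and 10.8% of all genes.

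The subunits did not move alike. Adam, the loosely attached j subunit, had an averaged log2 difference of -0.13 ± 0.18 (SE), and -0.01 ± 0.14 without control 0.15 M replicate 2. CG9769, the f1 subunit, had -0.39 ± 0.31 with all libraries and 0.09 ± 0.13 without that one, where its level was 687 CPM against 182 and 173 CPM in the other 2 of its group. Within each library the count of eIF3-S9 divided by that of eIF3-S8, which needs no scaling of library size, was 0.25 to 0.88 in the 6 control libraries and 0.90 to 1.14 in the 6 InRi libraries. The ratio of eIF-3p40 to eIF3-S8 was 0.29 to 0.37 in control and 0.38 to 0.46 in InRi. Neither of these ratios overlapped between the genotypes, where 1.69% of 8661 genes had a ratio to eIF3-S8 higher in all 6 InRi libraries. For eIF-3p40 the highest control ratio was 0.373 and the lowest InRi ratio 0.385. Both genes had been called from these same counts, so their ratios give no separate support. Without control 0.15 M replicate 2 the lowest control ratios were 0.73 and 0.36. The ratios of the other eIF-named subunits overlapped, with eIF3-S10 at 0.80 to 3.23 in control and 0.80 to 0.95 in InRi, and eIF-3p66 at 0.36 to 0.49 in control and 0.37 to 0.46 in InRi.

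**Figure D3:**
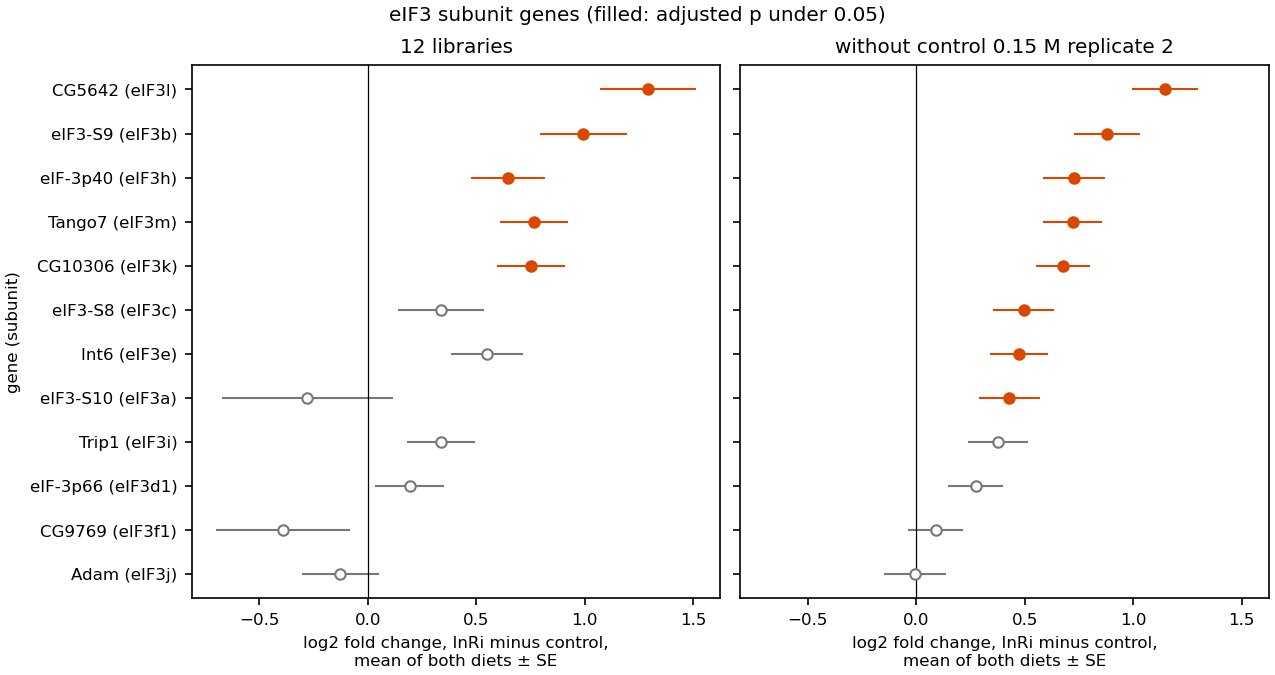
Averaged log2 fold change of InRi over control (± SE) for 12 eIF3 subunit genes with all 12 libraries at left and without control 0.15 M replicate 2 at right, filled where the edgeR adjusted p is under 0.05. At left 5 genes are filled and at right 8, and CG5642 lies farthest to the right in both, at 1.29 and 1.15.

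Markers of other cell types differed between the genotypes as well. The 7 salivary gland markers, all detected, summed to 1342 to 5463 CPM in the control libraries. They summed to 48.1, 1573 and 93.3 CPM in replicates 1 to 3 of InRi 0.15 M and to 7.73 to 96.9 CPM in InRi 0.7 M. Replicate 2 of InRi 0.15 M also held the lowest fat body sum, at 160809 CPM. Its eIF3-S9 and eIF-3p40 were the lowest of the InRi libraries, at 479.7 and 204 CPM, and a link between these values was not tested. The salivary gland markers were also counted by calls. Of the salivary gland markers, 7 of 7 were called lower on 0.7 M, beside 1.79% of all genes, and 2 of 7 on 0.15 M, beside 0.773%. The 5 hemocyte markers summed to 279 to 475 CPM in control 0.7 M and to 726 to 803 CPM in InRi 0.7 M. But 1 of 5 was called higher (Pxn, log2 fold change 1.52, adjusted p = 0.0148), beside 3.63% of all genes, and the median of the 5 was -0.22. On 0.15 M they summed to 445 to 1065 CPM in control and to 548 to 698 CPM in InRi. The 9 muscle markers summed to 4553 to 5595 CPM in control 0.7 M and to 1529 to 3583 CPM in InRi 0.7 M. On 0.15 M the muscle sums were 2425, 14134 and 4855 CPM in control, the highest being replicate 2, and 2660 to 4802 CPM in InRi. Averaged over the diets 1 of the 9 was called lower (Mhc, adjusted p = 0.044) and 0 higher, beside 5.13% and 6.23% of all genes. The 6 midgut markers summed to 641 to 1195 CPM in control 0.15 M, 405 to 601 CPM in InRi 0.15 M, 371 to 419 CPM in control 0.7 M and 139 to 386 CPM in InRi 0.7 M. Of these, 1 of 6 (Mal-A6) was called lower on 0.15 M, on 0.7 M and in the average, with adjusted p = 0.0185, 0.00619 and 0.000382. Of all genes, 0.773%, 1.79% and 5.13% were called lower in the same order. The averaged median of the 6 was -0.69. The 5 neuron markers summed to 312 to 518 CPM over all libraries, and the lowest adjusted p of the 5 in these comparisons was 0.118. No marker was at 0 in every library, and the part of these cells in the eIF3 differences was not tested. In bulk samples fewer cells of a type and less RNA per cell cannot be told apart.

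The 3 genes of the cap-binding complex eIF4F had averaged differences above 0 without passing the test in the 12 libraries. eIF4G, the scaffold, stood at 205, 4.46 and 165 CPM in control 0.15 M and 315, 249.7 and 311 CPM in InRi 0.15 M. It stood at 226, 183 and 237 CPM in control 0.7 M and 336, 408 and 287 CPM in InRi 0.7 M. Every InRi library lay above every control library over both diets, which held for no other eIF row and for 3.83% of all genes tested. No eIF row lay wholly lower, beside 2.53% of all genes. The averaged test gave log2 fold change 0.95 ± 0.51 (SE), adjusted p = 0.261. The value of control replicate 2 rests on 6 counts. Without that library the difference was smaller and its error lower, at 0.67 ± 0.16 (SE) with adjusted p = 0.00814.

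eIF-4E encodes the cap-binding protein. Its level was 79.1, 11.9 and 97.6 CPM in control 0.15 M, 129, 121 and 131 in InRi 0.15 M, 102, 106 and 122 in control 0.7 M and 134, 134 and 117 in InRi 0.7 M. The groups did not overlap on 0.15 M and did on 0.7 M, and the averaged difference was 0.61 ± 0.34 (SE) with adjusted p = 0.269. eIF-4a, the helicase, stood at 1324, 2655 and 1328 CPM in control 0.15 M and 2234, 1655 and 2029 CPM in InRi 0.15 M. On 0.7 M it stood at 1669, 1777 and 1599 CPM for control and 2581, 2250.5 and 2295 CPM for InRi, without overlap (log2 fold change 0.50 ± 0.32 (SE), adjusted p = 0.462). Without control 0.15 M replicate 2, all 3 genes passed the averaged test, beside 11.6% of all genes called higher. Then eIF-4a was at 0.53 ± 0.14 (adjusted p = 0.0143) and eIF-4E at 0.38 ± 0.13 (adjusted p = 0.0458). eIF-4B, which stimulates the helicase, had 0.54 ± 0.41 (SE) with all libraries and 0.29 ± 0.16 without that one, and did not pass (adjusted p = 0.426 and 0.214).

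The eIF2 and eIF2B genes had no call by edgeR in the 7 comparisons with 12 libraries. eIF-2alpha encodes the subunit whose phosphorylation slows initiation under stress. It was at 85.3, 336 and 75.3 CPM in control 0.15 M and 89.5, 76.7 and 107 CPM in InRi 0.15 M. It was at 83, 88 and 92.6 CPM in control 0.7 M and 90.7, 92.6 and 80.7 CPM in InRi 0.7 M. Apart from control replicate 2 all values lay between 75.3 and 107 CPM, and the groups overlapped. The averaged difference was -0.42 ± 0.32 (SE) with that library and 0.09 ± 0.13 without it. eIF-2beta stood at 80.7, 182 and 87.3 CPM in control 0.15 M and 85.1, 73.5 and 101 CPM in InRi 0.15 M. On 0.7 M it was at 103, 119.6 and 121 CPM for control and 86.4, 96.9 and 76.7 CPM for InRi, all InRi libraries lower (log2 fold change -0.40 ± 0.30 (SE), adjusted p = 0.546). No eIF row for the gamma subunit of eIF2 was analysed here.

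For the 5 eIF2B genes, the exchange factor of eIF2, all 5 fitted differences between InRi and control were below 0 on 0.7 M sucrose, from -0.50 to -0.09 with adjusted p = 0.254 to 0.898. On 0.15 M sucrose 3 were above 0 and 2 below, with library sizes left unscaled all 5 were above 0 there, and without control 0.15 M replicate 2 there were 2 above and 3 below. eIF2B-epsilon, the catalytic subunit, stood at 22.3, 29 and 21.8 CPM in control 0.7 M and 17.4, 18.6 and 16.1 CPM in InRi 0.7 M, without overlap (log2 fold change -0.50 ± 0.22 (SE), adjusted p = 0.254). The same gene on 0.15 M was at 24, 19.3 and 18 CPM for control and 19.3, 19.7 and 21.6 CPM for InRi, with overlap. eIF2B-beta, a regulatory subunit, was at 29, 33.2 and 20.7 CPM in control 0.7 M and 21.3, 19.3 and 20.8 CPM in InRi 0.7 M, with overlap (log2 fold change -0.46 ± 0.23 (SE), adjusted p = 0.311). The values of eIF2B-beta on 0.15 M were 24, 26.8 and 21.1 CPM for control and 21.5, 23.5 and 26.2 CPM for InRi. The summed level of the 5 genes was 114 to 146 CPM in control 0.7 M and 96.3 to 104 CPM in InRi 0.7 M.

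Of the factors that act at start-site choice and subunit joining, eIF5, which triggers GTP hydrolysis by eIF2, had an averaged difference of 0.48 ± 0.18 (SE) with adjusted p = 0.106, and of 0.41 ± 0.16 with adjusted p = 0.0857 without control 0.15 M replicate 2. On 0.15 M it was at 74.4, 53.6 and 71.1 CPM for control and 119, 101 and 107 CPM for InRi, without overlap (log2 fold change 0.71 ± 0.25 (SE), adjusted p = 0.172), and 0.56 ± 0.24 without control replicate 2. The groups overlapped on 0.7 M, with 104, 62 and 113 CPM for control and 115.1, 107 and 107 CPM for InRi. DESeq2 called eIF5 in the averaged comparison. eIF-1A, which promotes scanning, was at 158, 286 and 166 CPM in control 0.15 M and 268, 195 and 262 CPM in InRi 0.15 M. On 0.7 M it was at 206, 177 and 216 CPM for control and 249.7, 244 and 225 CPM for InRi, without overlap. eIF-1A passed the averaged test without control 0.15 M replicate 2 (adjusted p = 0.0462) and not with it (adjusted p = 0.41). eIF5B, which joins the large subunit, was at 129, 128 and 119 CPM in control 0.7 M and 109.6, 112 and 107 CPM in InRi 0.7 M, all InRi libraries lower, with adjusted p = 0.813.

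eIF-5A was at 787, 337 and 856 CPM in control 0.15 M and 1109, 831 and 1063 CPM in InRi 0.15 M. It was at 942, 1099.5 and 908 CPM in control 0.7 M and 1429.6, 1229 and 1097 CPM in InRi 0.7 M, where the highest control library lay just above the lowest InRi library. Its averaged difference was 0.47 ± 0.24 (SE) with adjusted p = 0.224, and 0.32 ± 0.14 with adjusted p = 0.135 without control 0.15 M replicate 2. eIF6, which keeps the large ribosomal subunit from joining too early, was at 20.4, 64 and 20.3 CPM in control 0.15 M and 18.6, 18.8 and 18.3 CPM in InRi 0.15 M. On 0.7 M it was at 20.3, 26.4 and 9.8 CPM for control and 14.1, 16.7 and 13.7 CPM for InRi. On 0.15 M every InRi library lay below every control library, with a log2 fold change of -0.86 ± 0.42 (SE) and adjusted p = 0.294, and of -0.15 ± 0.25 without control replicate 2. eIF4AIII, a helicase of the exon junction complex, and eIF4G2 had averaged differences of -0.06 ± 0.33 and 0.21 ± 0.21 (SE), with adjusted p = 0.928 and 0.565. Without that library they were -0.27 ± 0.14 and 0.08 ± 0.17, with adjusted p = 0.202 and 0.766.

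**Figure D4:**
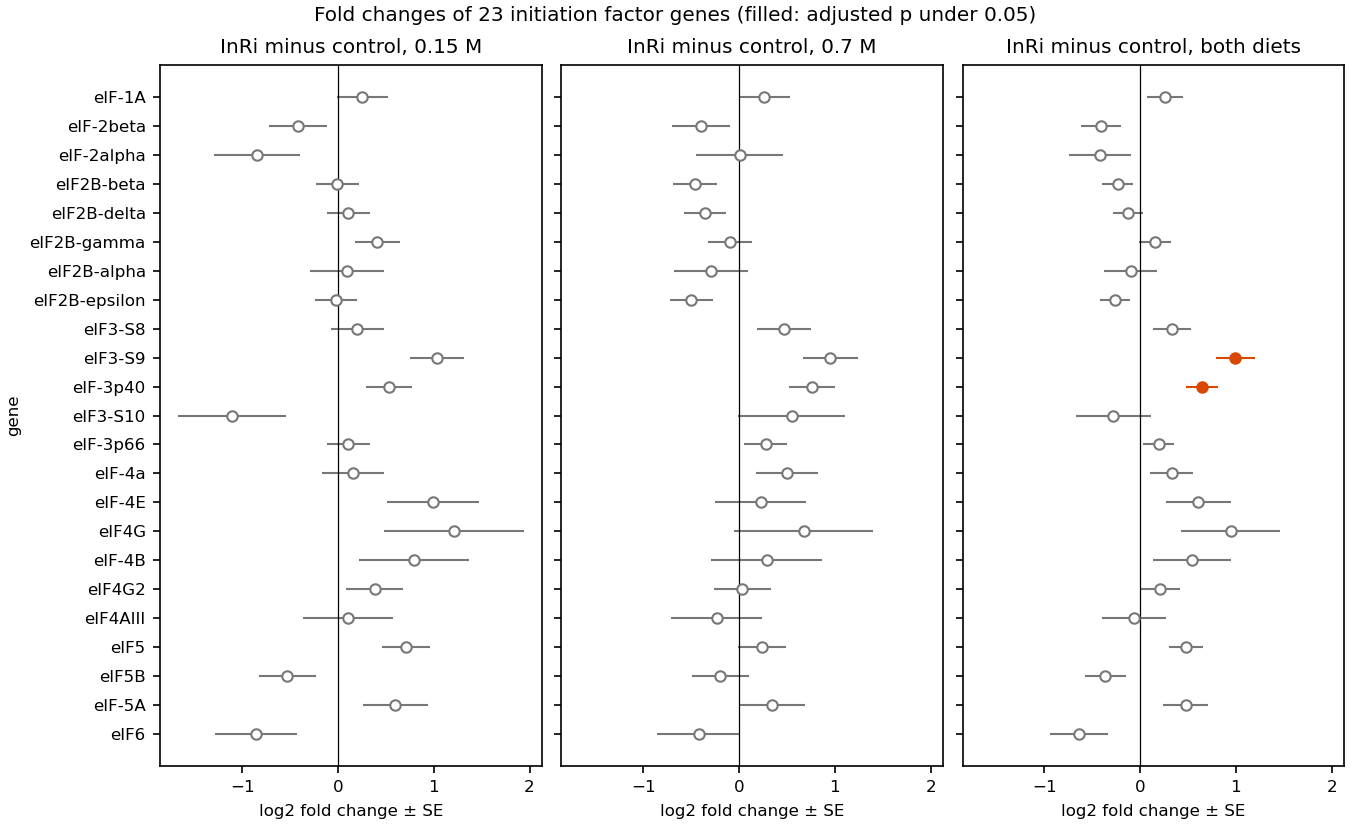
Log2 fold change of InRi over control (± SE) for 23 initiation factor genes on 0.15 M sucrose, on 0.7 M sucrose and averaged over both, filled where the edgeR adjusted p is under 0.05. In the averaged panel eIF3-S9 at 0.99 and eIF-3p40 at 0.65 are filled, and no gene is filled on either diet alone.

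The 5 rows below the filter were the eIF4E paralogs eIF4E-3, eIF4E-4, eIF4E-5, eIF4E-6 and eIF4E-7, relatives of the cap-binding protein, some of which are known from the testis. Over all 12 libraries they held 14, 1, 5, 1 and 3 counts. A floor set at 3 counts corresponds to 0.423 to 3.27 CPM in a library, and levels below it are not measured reliably. eIF4E-3 held 4 counts in InRi 0.15 M replicates 1 and 3, and every other value of these rows was at or below 3 counts. No fold is given. The genes are paralogs, and whether reads shared among them were split in counting is not given in the sources used here. The 14 testis and germline markers were also low, at 4.46 to 30.0 CPM in sum, with 7 of them under 1 CPM in every library. Their sum was 13.4 to 16.4 CPM in control 0.7 M and 24.0 to 30.0 CPM in InRi 0.7 M. In this comparison 1 of the 3 tested (topi) was called higher with adjusted p = 0.035, beside 3.63% of all genes.

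As a module, the 23 rows were counted against all genes tested. On 0.15 M sucrose edgeR called 0 of 23 between InRi and control, where 1.73% of all genes were called. At unadjusted p under 0.05 it gave 3 rows, all higher, beside 18.8% of all genes in either direction, and DESeq2 called 1, eIF3-S9, beside 6.54% of the genes to which it gave an adjusted p. DESeq2 gave none to eIF3-S10 in any comparison, so its counts are of 22 rows. Replicate values did not overlap for 5 rows higher (eIF2B-gamma, eIF3-S9, eIF-4E, eIF4G and eIF5) and 1 lower (eIF6), beside 13.4% and 9.33% of all genes. On 0.7 M sucrose edgeR called 0 of 23, where 5.41% of all genes were called. At unadjusted p under 0.05 it gave 2 higher and 1 lower, beside 18.7% of all genes, and DESeq2 called eIF3-S9 and eIF-3p40, beside 8.51%. Here 8 rows lay wholly higher, or 34.8% beside 18.5% of all genes, and 3 wholly lower, or 13.0% beside 16.5%. The 8 were the 5 eIF3 rows, eIF-4a, eIF4G and eIF-1A, and the 3 were eIF-2beta, eIF2B-epsilon and eIF5B. The median log2 fold change of the 23 rows was 0.16 on 0.15 M, 0.23 on 0.7 M and 0.19 averaged, beside 0.03, -0.04 and -0.01 for all genes tested. Of the 23 rows 16, 14 and 13 had a fitted difference above 0, beside 52.0%, 46.7% and 48.8% of all genes. In the averaged comparison 3 rows were at unadjusted p under 0.05, beside 26.9% of all genes, and DESeq2 called those same 3, eIF3-S9, eIF-3p40 and eIF5, beside 14.7%.

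The count of called rows was higher without control 0.15 M replicate 2. Then 8870 genes were tested, and 8 of 23 rows were called higher and 0 lower in the averaged comparison, or 34.8% beside 11.6% of all genes called higher and 10.8% lower. On 0.7 M sucrose 3 rows were then called higher (eIF3-S9, eIF-3p40 and eIF4G) and 0 lower, beside 11.0% and 7.5% of all genes. On 0.15 M sucrose 0 rows were called, beside 4.32% of all genes, with 8 at unadjusted p under 0.05 beside 18.8%. The groups then did not overlap for 10 rows higher and 2 lower, beside 18.0% and 18.3% of all genes, where eIF-1A, eIF3-S8, eIF-3p66, eIF-3p40 and eIF-4a joined the higher ones and eIF4AIII the lower one. In the library left out the 23 rows deviated from the mean of the other 2 libraries of the group by a median of 1.0 on the log2 scale, against 0.09 to 0.33 in the 9 libraries of the other groups. The direction differed by gene. eIF4G was 41.4-fold, eIF-4B 18.3-fold, eIF4AIII 9.42-fold and eIF-4E 7.42-fold below the mean of replicates 1 and 3. eIF3-S10 was 6.04-fold, eIF-2alpha 4.18-fold and eIF6 3.14-fold above it.

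**Figure D5:**
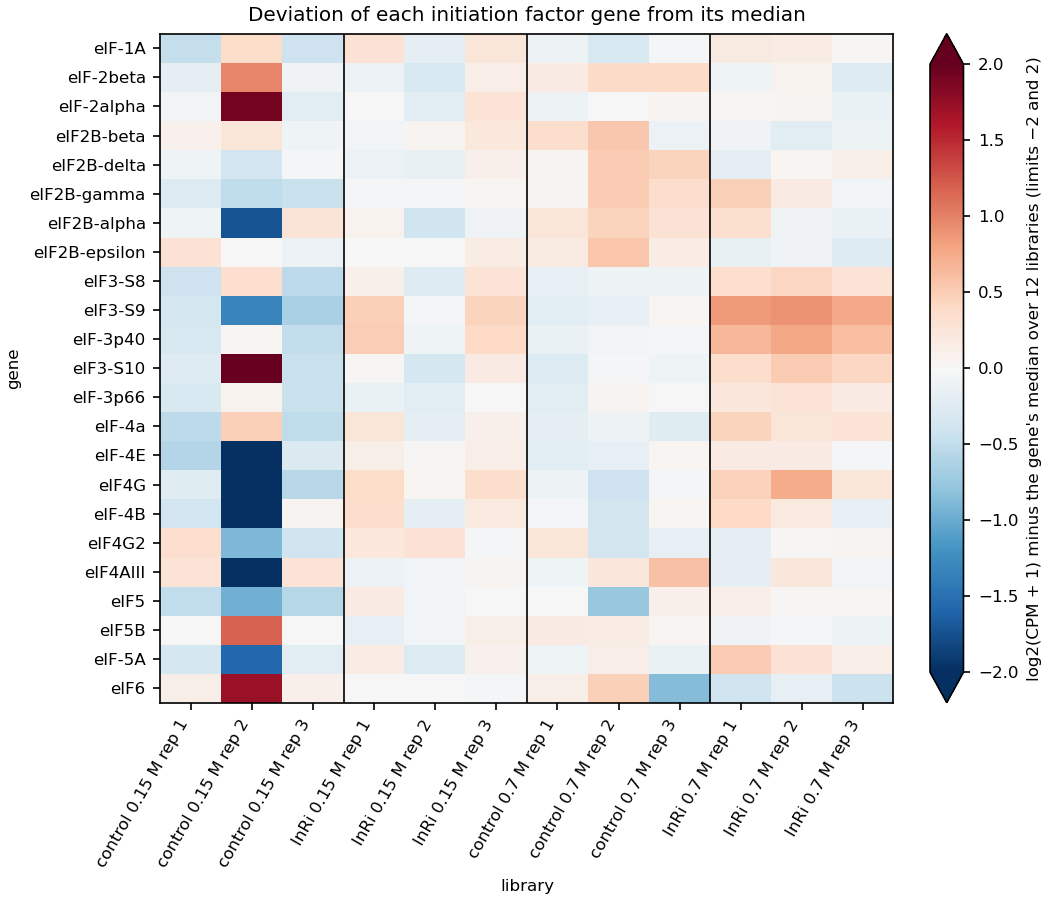
Colour map of log2(CPM + 1) of 23 initiation factor genes in 12 libraries minus the gene's median over the libraries, red above and blue below, with limits at -2 and 2. The column of control 0.15 M replicate 2 holds the strongest colours in both directions, and the eIF3 rows are red in all 3 libraries of InRi 0.7 M.

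The sucrose comparisons gave no call by edgeR among the eIF rows. In control larvae edgeR called 0 of 23 between 0.7 M and 0.15 M sucrose, where 0.277% of all genes were called, with 2 rows at unadjusted p under 0.05 beside 10.5% and 0 by DESeq2. Those rows were eIF2B-gamma, which forms the catalytic part with epsilon, and eIF2B-delta, a regulatory subunit. eIF2B-gamma stood at 15.8, 13.4 and 14 CPM on 0.15 M and 20.1, 28.1 and 25 CPM on 0.7 M (log2 fold change 0.75 ± 0.24 (SE), adjusted p = 0.279). eIF2B-delta stood at 27.8, 22.3 and 28.5 CPM on 0.15 M and 30.6, 42.3 and 40.3 CPM on 0.7 M (log2 fold change 0.51 ± 0.23 (SE), adjusted p = 0.459). In InRi larvae eIF2B-gamma was at 18.9, 18.8 and 19.9 CPM on 0.15 M and 27.6, 22 and 18.6 CPM on 0.7 M, and eIF2B-delta at 27.2, 26.4 and 31.7 CPM and 25.6, 30.5 and 32 CPM. In control larvae neither gene overlapped between the diets, and all 5 eIF2B rows had fitted differences above 0, from 0.25 to 0.75 with all libraries and from 0.21 to 0.67 without control 0.15 M replicate 2. In all, 5 rows lay wholly higher on 0.7 M (the others were eIF3-S9, eIF-4E and eIF-5A) and 0 wholly lower, beside 8.12% and 6.2% of all genes. Without control 0.15 M replicate 2 these counts were 12 and 0, or 52.2% of the rows higher beside 13.6% of all genes and 0 lower beside 14.7%. Still 0 rows were called where 1.51% of all genes were, and 1 row was at unadjusted p under 0.05 beside 11.8% of all genes. The fitted differences of eIF3-S10 and eIF-2alpha changed sign with that library, from 0.20 and 0.10 without it to -1.19 and -0.90 with it.

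In InRi larvae edgeR called 0 of 23 rows between the diets, where 1.26% of all genes were called, with 0 at unadjusted p under 0.05 beside 11.4% and 0 by DESeq2. All 5 eIF3 rows and eIF-4a lay wholly higher on 0.7 M, which is 6 of 23 beside 14.7% of all genes. The log2 fold changes of the eIF3 rows were 0.29 to 0.53, with adjusted p = 0.545 to 0.875. eIF2B-beta, eIF2B-epsilon and eIF6 lay wholly lower, beside 12.2% of all genes. This comparison shares the InRi 0.7 M libraries with that of InRi and control on 0.7 M sucrose. With unscaled library sizes the median of all genes moved by -0.25 in it, and the log2 fold changes of the eIF3 rows were 0.06 to 0.29. Overlap of the groups was judged on TMM-scaled levels only, so this separation depends on the scaling. With TMM scaling the 23 rows had a median of 0.04 and all genes -0.02, and in control larvae the medians were 0.25 and 0.03. Averaged over the genotypes, edgeR called 0 rows where 2.34% of all genes were called, with 2 rows (eIF3-S9 and eIF2B-gamma) at unadjusted p under 0.05 beside 15.6%, and DESeq2 called eIF3-S9, beside 4.9%. The averaged difference of eIF3-S9 was 0.57 ± 0.20 (SE) with adjusted p = 0.187, and 0.45 ± 0.15 with adjusted p = 0.0875 without control 0.15 M replicate 2.

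Whether the difference between the genotypes itself differed between the diets was tested by the interaction. edgeR called 0 of 23 rows and 0.0% of all genes, with 0 rows at unadjusted p under 0.05 beside 5.26%, and DESeq2 called 0 rows. For eIF3-S9 the interaction was -0.08 ± 0.40 (SE) with adjusted p = 0.982, and for eIF-3p40 it was 0.23 ± 0.34 with adjusted p = 0.94. Without control 0.15 M replicate 2 these were 0.18 ± 0.29 and 0.10 ± 0.28. For the 5 eIF2B rows it was -0.50 to -0.39, with adjusted p = 0.895 to 0.938, and -0.51 to -0.02 without control 0.15 M replicate 2. The largest was that of eIF3-S10, at 1.66 ± 0.79 (adjusted p = 0.895), and it was 0.28 ± 0.28 without control 0.15 M replicate 2.

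Other genes of translation were taken from lists by name, which were also chosen with earlier results of these data known. Of 11 tested initiation factors without an eIF symbol, the 3 eIF3 subunits named above were higher and 0 lower in the averaged comparison, with a median log2 fold change of 0.31. Among 13 tested regulators of initiation, S6k, the kinase that phosphorylates ribosomal protein S6, was the single call, higher in the averaged comparison (log2 fold change 1.06 ± 0.21 (SE), adjusted p = 0.00684) and on 0.7 M (log2 fold change 1.14 ± 0.30 (SE), adjusted p = 0.046). S6k stood at 32.1, 23.3 and 39.2 CPM in control 0.7 M and 78.4, 71.3 and 54.3 CPM in InRi 0.7 M. Its call on 0.7 M was lost in 13 of the 18 alternative fits, with adjusted p up to 0.213, while the averaged call held in all 17. Thor, which sequesters eIF-4E and is a known target of the transcription factor foxo, was at 177, 38.7 and 92.8 CPM in control 0.15 M and 97.9, 82.6 and 58.8 CPM in InRi 0.15 M. It was at 139, 145 and 225 CPM in control 0.7 M and 160.3, 404 and 187 CPM in InRi 0.7 M. Its difference between the genotypes averaged 0.09 ± 0.34 (SE) with adjusted p = 0.896, and that between the diets in InRi was 1.65 ± 0.50 with adjusted p = 0.169. The diet difference in InRi passed without control 0.15 M replicate 2, with adjusted p = 0.0157.

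Among 9 elongation and termination factors, eRF1, which recognises stop codons, and pix, which splits ribosomes after termination, were higher in the averaged comparison and 0 were lower. The log2 fold change of eRF1 was 0.73 ± 0.16 (SE) with adjusted p = 0.0104, and that of pix was 0.78 ± 0.18 (SE) with adjusted p = 0.0127. On 0.7 M alone eRF1 passed with adjusted p = 0.0438, a call lost in 13 of the 18 alternative fits, with adjusted p up to 0.162. pix stood at 356, 378 and 414 CPM in control 0.7 M and 681, 681 and 652 CPM in InRi 0.7 M, without overlap. Of the 20 cytosolic aminoacyl-tRNA synthetase genes, which charge tRNAs, 0 were called by edgeR in the 7 comparisons with 12 libraries, the lowest adjusted p being 0.0769 in the averaged comparison. There 5 had an unadjusted p under 0.05, beside 26.9% of all genes. DESeq2 called 3 there (Aats-asn, Aats-ile and Aats-thr), beside 14.7% of the genes to which it gave an adjusted p. On 0.7 M it called 1 (Aats-thr), beside 8.51%. Of 85 tested ribosomal protein genes, 2 were higher (RpL27 and RpL35) and 1 lower (RpLP2) in the averaged comparison, with a median log2 fold change of -0.20, and of -0.079 without control 0.15 M replicate 2. On 0.7 M alone RpL27 and RpL28 were higher and 0 lower. These counts stand beside 6.23% of all genes called higher and 5.13% lower in the averaged comparison and 5.41% called on 0.7 M. Without control 0.15 M replicate 2, the averaged comparison called 3 higher and 1 lower of the 13 regulators, 3 and 0 of the 9 elongation and termination factors, 1 and 2 of the 20 synthetases, and 7 and 12 of the 85 ribosomal proteins. Of all genes 11.6% were called higher and 10.8% lower in that fit.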

How the data were processed

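The table holds read counts per gene as deposited by the authors, 15222 rows in 12 libraries of 872755 to 7114144 counts. Per the submitters' processing notes, TopHat 1.3.2, Bowtie 0.12.7 and Cufflinks 1.1.0 were used with build dm3. Neither the counting tool nor its use of strand is given in the sources used here, so reads of overlapping or antisense genes cannot be told apart. A gene's count also depends on the cells collected and on rRNA removal.

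edgeR 4.0.16 in R 4.3.3 was run with TMM scaling, filterByExpr (minimum count 10, minimum total 15) and a quasi-likelihood fit over the 4 groups with no covariate. It gave 7 contrasts, each adjusted by Benjamini-Hochberg over 8662 genes, and was tested on simulated data. The simulation changed 200 genes alike in the InRi groups of both diets. It held no sucrose or interaction effect, so it could not test whether those contrasts recover one. Exonic lengths came from the Ensembl BDGP6.54 annotation, used for lengths and names only, and all 28 eIF rows matched. DESeq2 1.42.0, other scalings, no filter, a replicate block, the groups compared alone and the omission of each library were the alternatives. Figures used Python 3.11.15 and matplotlib 3.10.9.

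Values in every library are given for eIF rows called, for the 2 with the smallest p in each direction of each pairwise comparison, for eIF4F, eIF2, eIF-5A and eIF6, and for the 3 highest levels per kilobase. From other lists InR, Thor and up to 3 genes with the smallest p were eligible. The members and lists were chosen with earlier results of these data known. Floors cover counting error only.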

Additional observations from a re-analysis of the deposited data

How the results depend on the processing

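Calls among the eIF rows depended on the test and on single libraries. DESeq2 called 1 row on 0.15 M sucrose between InRi and control, 2 on 0.7 M and 1 between the diets averaged over genotypes, where edgeR called 0 in each; of the genes it gave an adjusted p DESeq2 called 6.54%, 8.51% and 4.9%. Fitting only the 6 libraries compared gave 4 on 0.7 M (eIF-3p40, eIF3-S10, eIF3-S9 and eIF4G), beside 20.8% of all genes. Leaving out 1 library gave 0 to 1 called rows on 0.15 M, 0 to 3 on 0.7 M, 1 to 8 averaged over the diets and 0 to 0 in the sucrose and interaction comparisons. The highest counts on 0.7 M and in the average came without control 0.15 M replicate 2. The cause of these differences was not tested.

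The median log2 fold change of the eIF rows with unscaled library sizes was 0.36 on 0.15 M, 0.11 on 0.7 M, -0.21 between diets in InRi, -0.48 for the interaction and 0.0876 between diets averaged. This scaling moved the median of all genes by 0.17, -0.10, -0.25, -0.27 and -0.12 in the same order. Without the filter on low counts, which adds rows with few counts, the median on 0.7 M was 0.0195. With 1 library left out, the medians ranged from 0.0857 to 0.28 on 0.15 M, from 0.0343 to 0.30 on 0.7 M, from 0.15 to 0.37 between diets in control, from -0.01 to 0.13 in InRi, from -0.35 to -0.0845 for the interaction, from 0.15 to 0.27 for InRi averaged and from 0.15 to 0.24 for sucrose averaged.

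Over the omissions, eIF3-S10 ranged from -1.53 to 0.29 between InRi and control on 0.15 M and from -1.61 to 0.20 between diets in control, and eIF-2alpha from -1.26 to 0.10 there. Each highest value was without control 0.15 M replicate 2, which turned the sign, with adjusted p = 0.511, 0.794 and 0.914. Of the named-gene results refitted, 347 kept direction and side of the threshold with a library left out, 6 passed newly, 40 no longer passed and 3 turned. Under the other settings these numbers were 171, 8, 9 and 0. Results called neither with all 12 libraries nor in the refit are among the 347 and the 171. Only a called result could stop passing, so these numbers do not give the share of calls that held.

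Groups share replicate numbers in the labels, and no pairing by number was detected. Of 18 same-numbered pairs 2 had a correlation over 0.1 (range -0.37 to 0.16), and 2 of 12 libraries correlated best with their own number. Of 36 differently numbered pairs 7 had a correlation over 0.1 (range -0.23 to 0.49). With groups of 3 libraries these correlations cannot show that no pairing existed. With the replicate block 1 eIF row was called in the averaged comparison, eIF3-S9, beside 8.4% of all genes, and eIF-3p40 had adjusted p = 0.0624. In the library with the fewest counts, 3 counts correspond to 3.27 CPM, which limits the eIF4E paralogs most.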
